A study of Mus musculus with 58 samples.

Results

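The 33 genes described here encode chromatin and transcription regulators that human genetics has linked to autism, and the question is where each stood in mouse prefrontal cortex across genotype, drug and sex. They were taken from a fixed list by gene symbol. All 33 were found among the 18088 genes of the deposited table, and all 33 were among the 17925 genes tested. The 58 RNA sequencing libraries came from C57BL/6J mice labelled WT or HT, the latter heterozygous for Tanc2, which encodes a postsynaptic scaffold protein. Pups received fluoxetine, a serotonin reuptake inhibitor, lithium, a mood stabiliser, or vehicle through the milk of their mothers from postnatal day 3 to day 24. The cortex was taken on day 25. Each of the 12 combinations of genotype, drug and sex held 5 libraries, apart from the males of WT vehicle and of HT lithium, which had 4. WT vehicle and HT lithium therefore had 9 libraries and the other arms 10. The labels name neither the targeted allele nor the dose nor the litter, so pups that shared a treated dam cannot be recognised and p-values measure only the spread between these libraries.

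Chromatin regulators set how accessible DNA is to the transcription machinery. ATP-dependent remodellers move nucleosomes, methyltransferases and demethylases write and erase marks on histone tails, and readers and coregulators join those marks to repressor or activator complexes. Most of these proteins act in many cell types, and damaging variants in a single copy of many of these genes are known to cause neurodevelopmental disorders.

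Libraries held between 23271044 and 37801615 recovered reads, with a median of 27912120. Tanc2 itself was not lower in the libraries labelled HT. It ran from 7683 to 8636 normalized reads in HT vehicle against 6939 to 8005 in WT vehicle, and since the value sums the whole gene and the deleted part is not named, it checks the labels in neither direction. The 4 cortical excitatory markers summed to 41723 to 66282 normalized reads in every library. The pseudogene Gm10221 had reads in 27 libraries, namely all 19 lithium libraries, the 5 HT fluoxetine females and WT fluoxetine females 2, 3 and 4, and stood at 0 in the other 31. The mitochondrial transcript mt-Atp6 moved with it, at 32545 to 76292 normalized reads in those 27 libraries against 11019 to 34066 in the rest. Whatever separates these libraries cannot be told apart from lithium in a comparison of lithium with vehicle.

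Per kilobase of the longest annotated transcript, the most abundant members were Smarcc2, a core subunit of the BAF remodelling complex, at 1709 normalized reads, the neuronal repressor Myt1l at 1150 and the basic helix-loop-helix factor Tcf4 at 1140. Cul3, the scaffold of a ubiquitin ligase, followed at 900 and Ankrd11, a corepressor adaptor, at 844. The lowest was Asxl3, a partner of the BAP1 deubiquitinase, at 54.0, followed by the H3K27 demethylase Kdm6b at 151. Among the methyltransferases Setd5 led at 630, Ash1l stood at 413, Nsd1 at 400 and Setd2 at 320, and Kmt2a, Kmt5b, Kmt2c and Ehmt1 lay between 279 and 177. The remodellers Chd8, Arid1b and Chd2 stood at 361, 222 and 217. The DNA-binding factors Bcl11a, Ctcf and Foxp1 had 494, 479 and 366, and the coregulators Tcf20, Med13l and Tbl1xr1 had 452, 357 and 285. Wac, Trip12, Dyrk1a and Naa15 had 631, 611, 418 and 235, and the heterochromatin protein Pogz, the methyl-CpG-binding domain protein Mbd5, the H3K4 demethylase Kdm5b and the histone reader Phf21a lay between 271 and 199. Myt1l and Tcf4, neighbours in this order, differed by less than the spread between libraries.

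**Figure D1:**
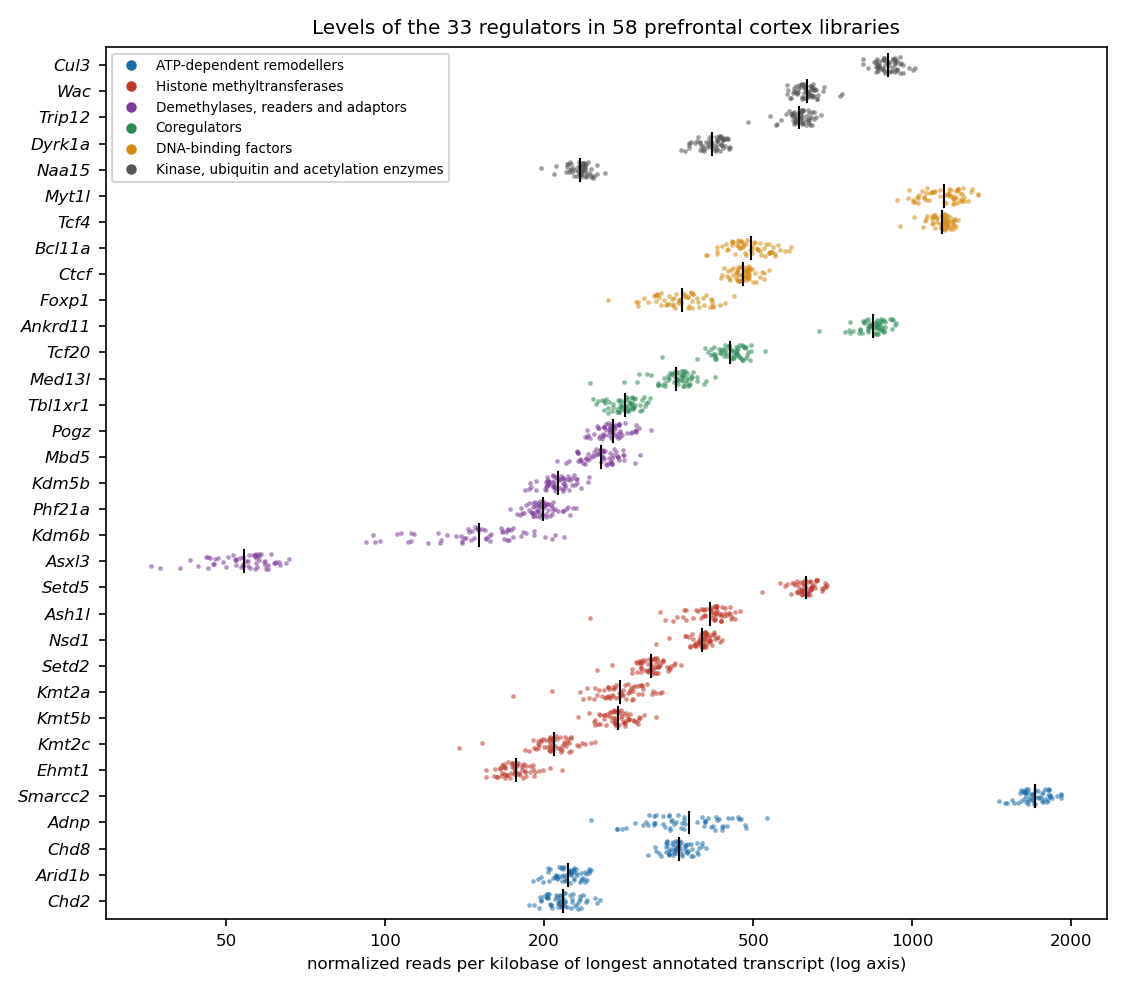
Each point is 1 of 58 libraries, the x axis gives normalized reads per kilobase of the longest annotated transcript on a log axis, rows are the 33 genes coloured by role and the black bar is the mean over all libraries. Smarcc2 stands highest at 1709 and Asxl3 lowest at 54.0, and the points of Kdm6b, Asxl3 and Adnp are the most scattered.

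The spread between libraries of a group also ranked the members. The pooled SD within groups was smallest for Wac and Dyrk1a, at 0.060 and 0.061 on the log2 scale, and largest for Kdm6b, at 0.25. Asxl3 and Adnp, an activity-dependent neuroprotector protein found in a remodelling complex with CHD4, followed at 0.18 each. Single libraries stood apart across the whole set, in both directions. The mean log2 deviation of the 33 members from their group means was -0.19 in HT lithium female 4 (30 members below), -0.14 in HT fluoxetine female 4 (32 below), -0.13 in WT fluoxetine female 5 (28 below) and -0.10 in HT fluoxetine male 2 (32 below). In HT lithium female 1 it was 0.12, with 0 members below. The mitochondrial share of the normalized reads, 5.41% to 9.26% over all libraries with a median of 7.01%, was highest in HT fluoxetine female 4 at 9.26%, stood at 8.27% in HT fluoxetine male 2 and was lowest in WT fluoxetine female 5. In HT lithium female 4 the share was 6.98%, near the median. WT lithium male 2, at 8.40%, and HT lithium female 3, at 8.38%, had mean deviations of only -0.015 and 0.019. HT fluoxetine female 4 also had the highest summed endothelial (4850) and microglia (7744) markers of the 58 libraries and a low oligodendrocyte sum, 65471 against a median of 120280. The part of these measures in the members' values was not tested.

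In the comparison of HT with WT the 33 regulators gave no call under any drug. The fit was limma with trend on log2(value + 1), with Benjamini-Hochberg adjustment over 17925 genes, and a gene passed with an adjusted p under 0.05. The share of all genes that passed was 0% under vehicle, 0% under fluoxetine and 0% under lithium. Under vehicle the members' differences, HT minus WT on the log2 scale, ran from -0.09 to 0.07 with a median of -0.0022. Of the members, 0, 2 and 3 had an unadjusted p under 0.05 in the vehicle, fluoxetine and lithium arms, namely Smarcc2 and Pogz under fluoxetine and Bcl11a, Cul3 and Wac under lithium. edgeR and DESeq2 on the recovered reads called 0 members in each. The interval of the genotype difference under vehicle lay within 1.2-fold for 32 of 33 members, all but Kdm6b. Under fluoxetine 29 of 33 members were lower in HT, with a median of -0.045, and the smallest adjusted p was 0.466, for Smarcc2 (-0.13 ± 0.036, log2 difference with its SE). The share of all genes lower in HT is not given here. Members also deviated together in single libraries, so their signs are not independent. Smarcc2 ran from 7515 to 8763 normalized reads in WT fluoxetine and from 6840 to 8231 in HT fluoxetine, and the ranges of WT and HT overlapped for every member under each drug.

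The change of the drug effect with genotype gave 0% of all genes and 0 members for fluoxetine, and 0% and 0 members for lithium. At an unadjusted p under 0.05 there were 2 members, Smarcc2 and Pogz, in the fluoxetine interaction and 1, Cul3, in the lithium interaction, and edgeR and DESeq2 again called 0 members. No drug effect below is therefore shown to differ between WT and HT, also where it passed in only 1 of them. The comparisons within a genotype share the vehicle libraries of that genotype, so their values are given side by side and not set against each other.

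**Figure D2:**
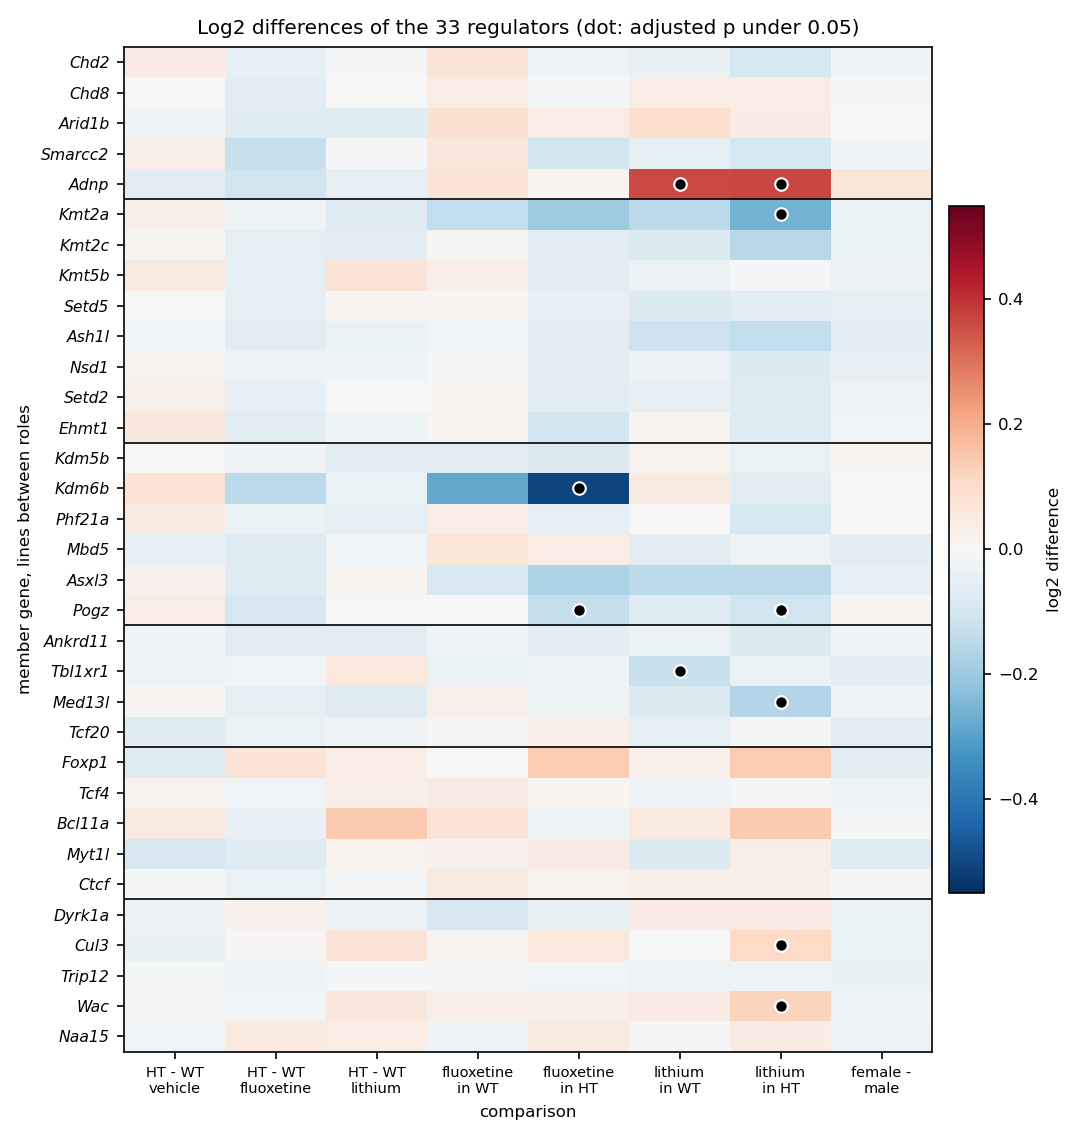
Colours give the log2 difference of each of the 33 genes (rows, with lines between roles) in 8 comparisons (columns), and a dot marks an adjusted p under 0.05 by limma. Dots stand only in the drug columns: 2 for fluoxetine in HT, 2 for lithium in WT and 6 for lithium in HT.

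Lithium gave the most calls. In WT 2 of 33 members passed, 1 higher and 1 lower, where 7.47% of all genes passed, 4.34% higher and 3.13% lower. In HT 6 of 33 members passed, 3 higher and 3 lower, where 16.3% of all genes passed, 8.25% higher and 8.03% lower. These shares of the members are near those of all genes. The members' median was -0.032 in WT and -0.038 in HT. Adnp passed in both, Tbl1xr1 in WT, and Wac, Cul3, Kmt2a, Med13l and Pogz in HT.

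The deposited value of Adnp was the one most changed by lithium. In WT vehicle it ran from 1562 to 1974 normalized reads with a median of 1704, and in WT lithium from 1728 to 2616 with a median of 2228. In HT vehicle it ran from 1471 to 1828 with a median of 1604, and in HT lithium from 1674 to 2392 with a median of 2153. Thus 9 of 10 WT lithium libraries and 8 of 9 HT lithium libraries lay above every vehicle library of their genotype, and the groups overlapped through 1 library each. The log2 difference was 0.36 ± 0.08 in WT (adjusted p 0.00243) and 0.37 ± 0.08 in HT (adjusted p 0.00082), or 1.28-fold and 1.29-fold. Under fluoxetine it ran from 1211 to 2102 in WT and from 1358 to 2147 in HT, a wide spread around vehicle that did not pass (adjusted p 0.856 and 0.928). The lithium difference was 0.34 in females and 0.39 in males of WT, and 0.34 and 0.40 in HT.

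A second gene model at the locus bears on this value. Gm20716 is annotated on the same strand, chromosome 2 minus, from the neighbouring Dpm1 into Adnp, and its exons share 4393 bases with those of Adnp, so reads from these bases can be assigned to either model. Gm20716 held more reads than Adnp, with a mean of 2738 against 1858. In WT it fell from a range of 2617 to 3101 in vehicle to 2048 to 2866 in lithium (log2 difference -0.22 ± 0.048, adjusted p 0.00181). In HT it ran from 2675 to 3097 in vehicle and from 2418 to 2967 in lithium (-0.10 ± 0.048, adjusted p 0.128). The sum of the pair ran from 4440 to 4822 in WT vehicle and from 4580 to 5055 in WT lithium, and from 4273 to 4757 in HT vehicle and from 4618 to 4950 in HT lithium. For the sum, the log2 difference with lithium was 0.028 ± 0.023 in WT (adjusted p 0.532), with a 95% interval of -0.018 to 0.073. In HT it was 0.087 ± 0.023 (adjusted p 0.00508), or 1.06-fold. Adnp took 37.3% ± 2.74 (SD, n = 9) of the sum in WT vehicle and 47.0% ± 5.02 (SD, n = 10) in WT lithium, and 36.2% ± 2.42 (SD, n = 10) and 44.1% ± 3.98 (SD, n = 9) in HT. A change of Adnp mRNA and a change in how reads were divided between the models cannot be told apart from these values. The summed analysis was chosen after the data were seen.

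**Figure D3:**
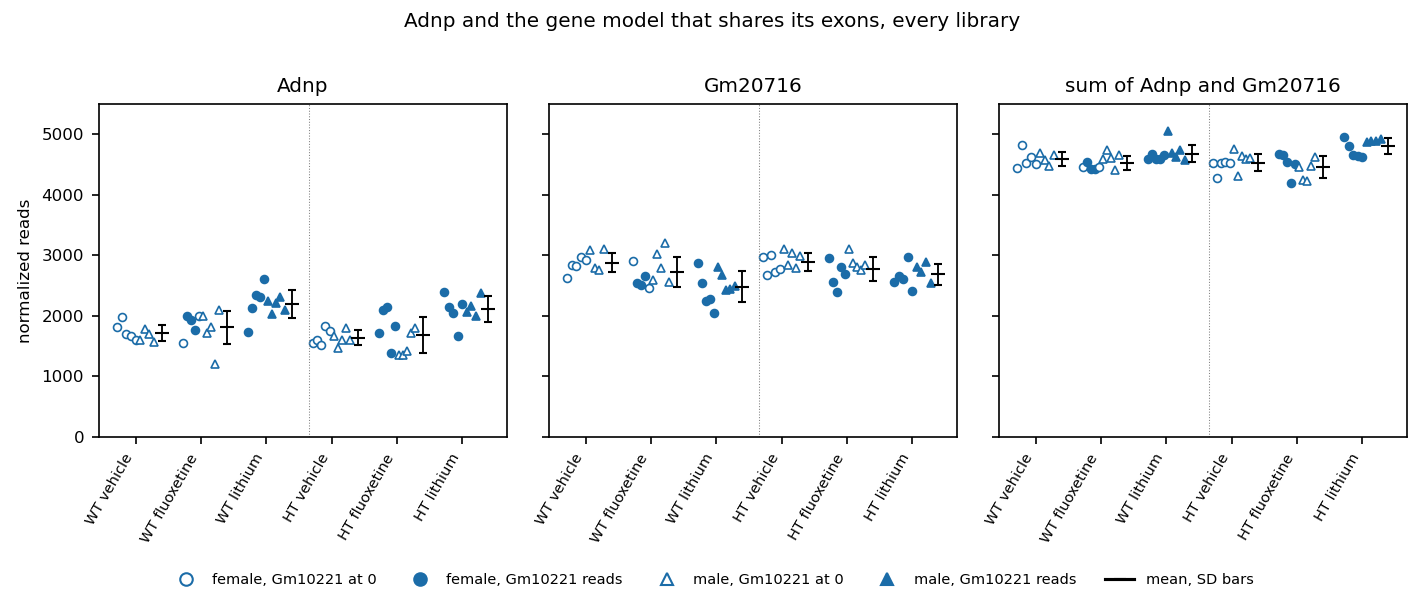
Points are single libraries in the 6 arms, circles female and triangles male, filled where Gm10221 had reads, the y axis gives normalized reads and the bars are the mean with its SD. Mean Adnp is higher and mean Gm20716 lower in the lithium arms than in vehicle. The Gm20716 difference passed in WT only and that of the sum, which was higher with lithium, in HT only. The sums sit between 4193 and 5055 over all arms.

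The Adnp difference did not pass once the Gm10221 split was in the fit. The term for the split itself was 0.17 ± 0.089 for Adnp and did not pass either (adjusted p 0.350 by limma). With the presence of Gm10221 reads as a term, which fluoxetine libraries with and without such reads inform, the lithium difference of Adnp alone was 0.18 in WT (adjusted p 0.490) and 0.19 in HT (adjusted p 0.427). HT lithium females and HT fluoxetine females all had Gm10221 reads, and between these the difference of Adnp was 0.20 ± 0.11 (adjusted p 0.443), with means of 2094 and 1834. Under that term 0 of 33 members passed for lithium in either genotype, with 3 genes of the whole table left in WT and 0 in HT. All lithium and no vehicle libraries had such reads, and the fluoxetine libraries with them were all female. Lithium differences are therefore less precise in this fit, and a lost call does not show a lost difference. The HT lithium difference of Kmt2a, given below, was larger with the term and still did not pass.

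Wac and Cul3 were the other members that rose with lithium, both in HT. Wac, an adaptor for ubiquitination of histone H2B, ran from 3011 to 3325 normalized reads in HT vehicle with a median of 3159 and from 3310 to 3842 in HT lithium with a median of 3380. All but 1 of the 9 lithium libraries lay above every vehicle library, and the log2 difference was 0.12 ± 0.029 (adjusted p 0.00224). Cul3 ran from 3883 to 4343 in HT vehicle with a median of 4069 and from 4050 to 4777 in HT lithium with a median of 4407, so 6 of 9 lithium libraries lay above every vehicle library (0.11 ± 0.031, adjusted p 0.0124). In WT the same lithium differences were 0.047 ± 0.029 for Wac (3012 to 3372 in vehicle, 3111 to 3539 in lithium) and -0.0012 ± 0.031 for Cul3 (3797 to 4466 and 3996 to 4401), neither past the threshold. Under fluoxetine Wac ran from 3024 to 3527 in WT and 3059 to 3443 in HT, and Cul3 from 3801 to 4520 and 4018 to 4533. With the Gm10221 term the HT lithium differences were 0.035 for Wac (adjusted p 0.697) and 0.027 for Cul3 (adjusted p 0.801).

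Kmt2a, an H3K4 methyltransferase of the trithorax family, fell with lithium in HT. It ran from 4588 to 5537 normalized reads in HT vehicle with a median of 5022 and from 2882 to 4642 in HT lithium with a median of 4365, so 8 of 9 lithium libraries lay below every vehicle library. The log2 difference was -0.26 ± 0.063 (adjusted p 0.00308), or 0.836-fold. The lowest value, 2882, is that of HT lithium female 4, and without that library the difference was -0.20 (adjusted p 0.0107). In WT Kmt2a ran from 4514 to 5169 in vehicle and from 3986 to 4866 in lithium, and 8 of 10 lithium libraries lay below every vehicle library. The difference of -0.15 ± 0.063 did not pass (adjusted p 0.151). In HT fluoxetine Kmt2a ran from 3920 to 4878 (-0.20 ± 0.062, adjusted p 0.0579) and in WT fluoxetine from 3423 to 5323 (-0.13 ± 0.063, adjusted p 0.436). All 4 drug comparisons thus had a negative value, of which 1 passed. The HT lithium difference was -0.38 with the Gm10221 term (adjusted p 0.0722) and -0.15 (adjusted p 0.00431) after a trend on transcript length and GC content was removed. An antisense model at the Kmt2a locus, AC061963.1, shares 378 exon bases with it and had a mean of 32.0 normalized reads against 4594 for Kmt2a.

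Med13l and Pogz also fell with lithium in HT, by less. Med13l, a subunit of the Mediator kinase module, ran from 3201 to 3782 in HT vehicle with a median of 3370 and from 2282 to 3638 in HT lithium with a median of 3159, and 5 of 9 lithium libraries lay below every vehicle library (-0.16 ± 0.053, adjusted p 0.0281). Its call was lost without HT lithium female 4 (-0.11, adjusted p 0.101), HT lithium male 1 (-0.12, adjusted p 0.0986), HT lithium male 2 (-0.14, adjusted p 0.0823), HT vehicle female 2 (-0.14, adjusted p 0.0595) or HT vehicle male 5 (-0.15, adjusted p 0.0527). In the other arms Med13l ran from 3225 to 3564 (WT vehicle), 2818 to 3475 (WT lithium), 3152 to 3925 (WT fluoxetine) and 3064 to 3748 (HT fluoxetine). The WT lithium difference was -0.080 ± 0.053 (adjusted p 0.406).

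Pogz, a zinc finger protein that binds heterochromatin protein 1, ran from 1709 to 1920 in HT vehicle with a median of 1815. It ran from 1557 to 1804 in HT lithium with a median of 1670 and from 1532 to 1786 in HT fluoxetine with a median of 1656. In each drug arm 6 libraries lay below every vehicle library, of 9 and of 10. The difference was -0.11 ± 0.038 with lithium (adjusted p 0.0341) and -0.13 ± 0.036 with fluoxetine (adjusted p 0.0310). Neither call is firm. The lithium call was lost without any 1 of HT lithium females 2 and 4, HT lithium males 2 and 4, HT vehicle females 3 and 5 and HT vehicle males 2 and 5, with adjusted p up to 0.0821. The fluoxetine call was lost without any 1 of HT fluoxetine females 4 and 5, HT fluoxetine males 1 and 2 and the same 4 vehicle libraries, with adjusted p up to 0.0798. With the Gm10221 term, and with the length and GC trend removed, the fluoxetine call stayed and the lithium call was lost. In the libraries without Gm10221 reads the fluoxetine call was lost too. In WT Pogz ran from 1684 to 1915 in vehicle, 1616 to 1773 in lithium (-0.070 ± 0.038, adjusted p 0.284) and 1551 to 2049 in fluoxetine (0.0024 ± 0.038, adjusted p 0.993).

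Tbl1xr1, an exchange factor of the NCoR corepressor complex, was the 1 member that passed as lower with lithium in WT, where 21 of 33 members had a negative difference. It ran from 2169 to 2623 in WT vehicle with a median of 2428 and from 2041 to 2538 in WT lithium with a median of 2236, and 4 of 10 lithium libraries lay below every vehicle library (-0.12 ± 0.036, adjusted p 0.0268). The call was lost without WT lithium female 5 (adjusted p 0.0607), WT lithium male 4 (0.0546) or male 5 (0.0628), WT vehicle female 4 (0.0655) or WT vehicle male 4 (0.0693), where the difference lay between -0.11 and -0.10. In HT it ran from 2235 to 2566 in vehicle, 2150 to 2440 in lithium (-0.038 ± 0.036, adjusted p 0.525) and 2182 to 2536 in fluoxetine, and in WT fluoxetine from 2069 to 2605.

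**Figure D4:**
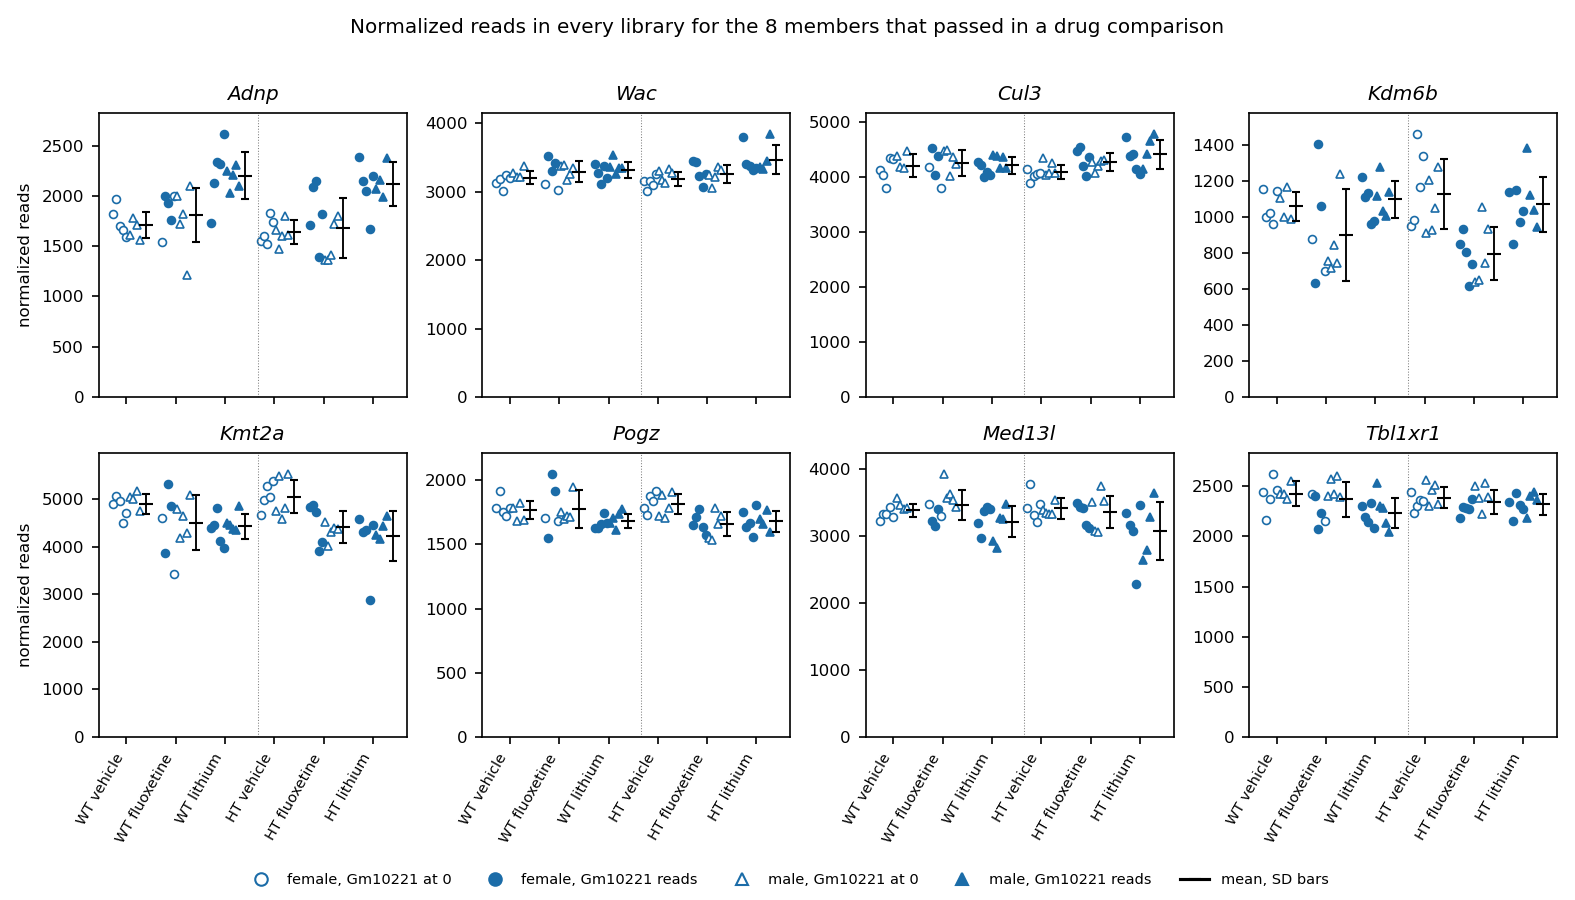
Points are single libraries of the 8 members that passed in a drug comparison, by arm, with circles for females, triangles for males and filled symbols where Gm10221 had reads, the y axis gives normalized reads from 0 and bars are the mean with its SD. Kdm6b is low in most fluoxetine libraries, Kmt2a is lowest in 1 HT lithium female at 2882, and in every panel the ranges of drug and vehicle overlap.

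Over all genes the median lithium difference fell with transcript length, and the members are long. With genes divided into 5 classes of near equal size by length, 29 of the 33 members lie in the longest, of 5043 bases or more, and the other 4 in the next. In the longest class the median difference of all genes was -0.043 in WT and -0.047 in HT, and in the shortest, up to 1802 bases, it was 0.048 and 0.058. After a trend on transcript length and GC content was removed from each library, the members' median turned to 0.016 in WT and 0.030 in HT. Then 3 members passed in WT, Adnp, Arid1b and Wac, all higher. In HT 8 passed, with Adnp, Arid1b, Bcl11a, Chd8, Cul3, Naa15 and Wac higher and Kmt2a lower, while Med13l and Pogz did not. The share of all genes that passed after this correction is not given here. These counts, and those of the partner lists below after the correction, therefore have no background. The sign of the set's median in the lithium comparisons hence depends on this correction.

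**Figure D5:**
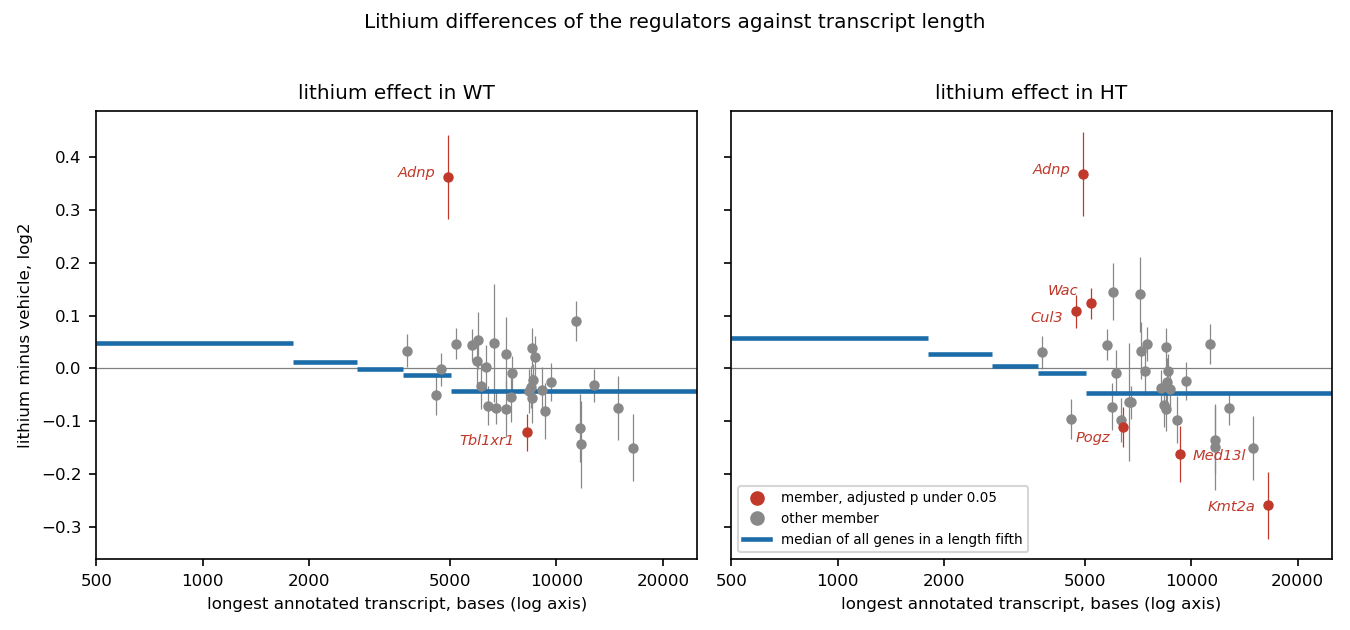
Points are the 33 members with SE bars, the x axis is the longest annotated transcript in bases on a log axis, cropped although the first class starts at 156 and the last ends at 123179 bases, the y axis is the log2 difference of lithium and vehicle, and blue steps are medians of all genes in 5 length classes. The steps fall from 0.048 to -0.043 in WT and from 0.058 to -0.047 in HT, and nearly all members sit over the last step.

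Fluoxetine gave calls among the members only in HT. In WT 0 of 33 members passed by limma, where 1.38% of all genes passed, 0.469% higher and 0.915% lower. At an unadjusted p under 0.05 there were 4 members, and edgeR and DESeq2 called 0. In HT 2 of 33 passed, both lower, where 3.54% of all genes passed, 1.46% higher and 2.09% lower, and this share is near the background. They were Kdm6b and Pogz, described above. edgeR and DESeq2 added Kmt2a.

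Kdm6b, which removes methyl groups from H3K27 and is induced by neuronal activity in many systems, had the largest difference of the set over the 10 comparisons. In HT vehicle it ran from 907 to 1458 normalized reads with a median of 1106, and in HT fluoxetine from 613 to 1054 with a median of 774. All 10 fluoxetine libraries lay below the vehicle mean of their sex and 7 lay below every vehicle library, while 3 overlapped. The log2 difference was -0.50 ± 0.11 (adjusted p 0.00345), or 0.705-fold. It was -0.58 in females and -0.43 in males. In WT fluoxetine 7 of 10 libraries also lay below every vehicle library, but 2 stood above them all. The range of 632 to 1402 thus enclosed that of vehicle, 958 to 1163 (-0.28 ± 0.11, adjusted p 0.279). Among those above was WT fluoxetine male 5, at 1235, whose olfactory bulb marker sum was 7635 against an arm median of 1019. The part of tissue content in its value was not tested. The difference between the fluoxetine effects of the genotypes was -0.22 ± 0.16 (adjusted p 0.803). With lithium Kdm6b ran from 960 to 1278 in WT (0.048 ± 0.11, adjusted p 0.863) and from 850 to 1380 in HT (-0.064 ± 0.11, adjusted p 0.758), neither past the threshold.

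The Kdm6b difference in HT was -0.57 with the Gm10221 term (adjusted p 0.00624). In the libraries without Gm10221 reads, where HT fluoxetine is represented by its 5 males, it was -0.48 (adjusted p 0.103) and that of Pogz -0.13 (adjusted p 0.195), and 0 members passed. The HT fluoxetine females, all with such reads, averaged 786 ± 120 (SD, n = 5) and the males, all without, 804 ± 183 (SD, n = 5). An antisense gene, Kdm6bos, shares 286 exon bases with Kdm6b and was not analysed here.

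Markers of other cell types and of neighbouring tissue moved with some of these comparisons. All 6 striatal markers had a positive lithium difference in each genotype, none past the threshold. Their summed level was 3338 to 13951 in WT lithium against 3030 to 4914 in WT vehicle, and 3372 to 14518 against 2908 to 4221 in HT. The medians were 4309 against 3916 in WT and 4065 against 3438 in HT. The highest sums are those of single libraries, WT lithium male 3 and HT lithium female 2. All 5 olfactory bulb markers had a positive lithium difference in each genotype too and a negative fluoxetine difference in HT, none past the threshold, with sums in HT fluoxetine of 91.2 to 7496 against 190 to 7673 in HT vehicle. Oligodendrocyte markers summed to 70259 to 148402 in HT lithium and 68937 to 141722 in HT vehicle, and 1 of 6 had a positive difference, none past the threshold. Their median sum was 98138 in HT lithium against 116654 in HT vehicle. In WT it was 111289 in lithium against 140949 in vehicle, with ranges of 90383 to 162341 and 89388 to 174490. Of the 3 inhibitory neuron, 4 astrocyte and 5 red blood cell markers none passed in a drug comparison, while 1 of 4 endothelial markers was lower in WT with each drug and 1 of 4 microglia markers higher in WT lithium. In bulk tissue, fewer cells of a type and less RNA per cell cannot be told apart, and the part of cell composition in the members' differences was not tested.

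Partners and paralogs of the members, listed by complex, are given beside the shares of all genes that passed, 16.3% in HT lithium (8.25% higher, 8.03% lower), 7.47% in WT lithium, 3.54% in HT fluoxetine and 1.38% in WT fluoxetine. With the Gm10221 term, a fit that is less precise for lithium, 0 genes of the 11 partner lists passed for lithium in either genotype. In HT lithium, 7 of 15 other COMPASS and H3K4 methylation genes passed, 5 lower and 2 higher. Lower were the methyltransferases Kmt2d (-0.37 ± 0.071, adjusted p 0.000192), Setd1a (-0.17 ± 0.040, adjusted p 0.00214) and Kmt2b (-0.15 ± 0.041, adjusted p 0.00695), the shared subunit Rbbp5 (-0.11 ± 0.030, adjusted p 0.0105) and Setd1b (-0.18 ± 0.056, adjusted p 0.0181), the last named after its value was seen. Higher were the small subunits and adaptors Dpy30 (0.20 ± 0.052) and Psip1 (0.14 ± 0.035). In HT fluoxetine 4 of the 15 were lower and 0 higher: Setd1b (-0.30 ± 0.054, adjusted p 0.000385), Kmt2b (-0.17 ± 0.040), Kmt2d (-0.28 ± 0.068) and Setd1a (-0.16 ± 0.039). Both HT comparisons share their vehicle libraries. In WT, Setd1b was lower with fluoxetine (-0.22 ± 0.056) and Dpy30 higher with lithium (0.19 ± 0.052). For fluoxetine in HT 1 of the 15, Setd1b, passed with the Gm10221 term. Without the length and GC trend 2 were higher and 3 lower in HT lithium, and 2 lower in HT fluoxetine.

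Where other histone enzymes passed for a drug, they were lower. In WT lithium 0 of the 15 demethylases and 0 of the 11 methyltransferases below passed, where 7.47% of all genes passed. The share of all genes was 16.3% in HT lithium, 3.54% in HT fluoxetine and 1.38% in WT fluoxetine. Of 15 histone demethylases, 0 were higher and 4 lower in HT lithium, where Kdm2a stood at -0.15 ± 0.035, Kdm3b at -0.12 ± 0.037, Kdm5a at -0.15 ± 0.046 and Kdm7a at -0.16 ± 0.059. In HT fluoxetine 3 were lower, Kdm2a, Kdm3a and Phf2, and in WT fluoxetine 1, Kdm2a. Of 11 methyltransferases for H3K36, H3K9 and H4K20, 3 were lower in HT lithium: Setdb1 (-0.16 ± 0.032, adjusted p 0.000316), Ehmt2 (-0.15 ± 0.029, adjusted p 0.000395), which is the partner of the member Ehmt1, and Nsd3 (-0.12 ± 0.031). Setdb1 was also lower in HT fluoxetine (-0.14 ± 0.031). Without the length and GC trend 2 demethylase genes were lower in HT lithium, and 1 gene of the methyltransferase list was higher and 3 lower. The member Ehmt1 itself stood at -0.073 with lithium and -0.10 with fluoxetine in HT, neither past the threshold.

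Complex subunits passed in both directions. Of 24 other BAF subunits, 2 were higher (Brd7 and Bcl7c) and 3 lower (Brd9, Dpf2 and Ss18l1) in HT lithium, 1 was lower in WT lithium (Brd9, -0.19 ± 0.048), 2 were lower in HT fluoxetine (Dpf1 and Ss18l1) and 1 in WT fluoxetine (Bcl7c). The 5 of 24 in HT lithium are near the share of all genes, and without the length and GC trend 4 BAF genes were higher and 2 lower there, and 1 higher and 0 lower in HT fluoxetine. Of 19 corepressor genes, 2 were higher (Hmg20b and Gps2) and 4 lower (among them Rcor1, Mbd1 and Sin3b) in HT lithium. In WT lithium Hmg20b and Rcor2 were higher, and Rcor2 was lower with fluoxetine in both genotypes, joined by Rcor3 in HT. Of 6 other Mediator kinase module genes, the paralog kinase gene Cdk19 was lower with lithium in both genotypes (-0.14 ± 0.041 in each), Ccnc was higher in HT lithium and Med12 lower in HT fluoxetine (-0.25 ± 0.063), a gene that shares 749 exon bases with the model Gm21986. Of 7 other CHD genes, Chd3 was lower in HT lithium and Chd1 in HT fluoxetine. Of 10 cohesin genes Mau2 and of 7 genes of the ASXL and BAP1 complex Ogt were lower in HT lithium, and of 9 transcription factor paralogs Bcl11b was higher (0.32 ± 0.098, adjusted p 0.0192). Among 20 other autism-linked genes with synaptic or channel products, Tsc1 and Cacna1e were lower in HT lithium and Grin2b in WT lithium. Without the length and GC trend the balance in HT lithium turned in 3 of these lists: 4 cohesin genes were higher and 1 lower, 4 corepressor genes higher and 3 lower, and 3 synaptic or channel genes higher and 1 lower.

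Between the sexes 0 of 33 members passed by limma, edgeR or DESeq2, where 0.301% of all genes passed. At an unadjusted p under 0.05 there were 8 members, all lower in females, led by Setd5 (-0.054 ± 0.018, adjusted p 0.207) and Tbl1xr1 (-0.058 ± 0.020, adjusted p 0.262). Of the 33, 29 were lower in females, with a median of -0.028, and every member's interval lay within 1.2-fold. Of the partners, the X-linked demethylase genes Kdm6a (0.33 ± 0.034) and Kdm5c (0.23 ± 0.022) were higher in females. Both are known to escape X inactivation. No sex difference in a genotype or drug effect of a member had an unadjusted p under 0.05 by limma, and edgeR and DESeq2 were not run on these. The smallest unadjusted p was 0.0598, for Chd8 with fluoxetine in HT.

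By role, all 8 methyltransferase members had a negative lithium difference in HT and 7 of 8 in WT, and for fluoxetine it was 8 of 8 in HT and 3 of 8 in WT. Kmt2a with lithium in HT was the 1 of these that passed. Their median in HT lithium was -0.074, where all genes of the longest length class had -0.047. The 6 demethylases, readers and adaptors were all negative with lithium in HT and 3 of 6 in WT, and the 4 coregulators were all negative with lithium in each genotype. In HT lithium Kmt2c stood at -0.15 ± 0.060 (adjusted p 0.0793), Ash1l at -0.13 ± 0.065, Nsd1 at -0.075 ± 0.032 and Setd5 at -0.064 ± 0.031. In the HT lithium females the lowest value was 2858.7 normalized reads for Ash1l (median 4638.7) and 2066.7 for Kmt2c (median 3096.5). Of 9 lithium libraries, 4 lay above the vehicle mean of their sex for Ash1l, 2 for Setd5, 1 for Nsd1 and 0 for Kmt2c. HT lithium female 4 had 30 members below their group means (mean log2 deviation -0.19). The values and counts by role without that library are not given here. Of the 5 remodellers 3 had a positive lithium difference in each genotype, of which Adnp passed. Of the 5 DNA-binding factors 4 had a positive lithium difference in HT, led by Bcl11a (0.15 ± 0.053, adjusted p 0.0535) and Foxp1 (0.14), and none passed. The counts by role describe these values without a test of their own.

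Promoter sequence was at hand for 26 of the 33 members, as the 250 bases before and 50 after the annotated RefSeq start (GRCm38.p6). The 3 printed here belong to the members highest and lowest with lithium in HT that had an entry, and to Cul3, which shares motifs with Adnp. Capitals mark TGACGT, the core of a cyclic AMP response element, on either strand, and the palindrome CTCGCGAG. Adnp lies on chr2:168207063-168207362, Cul3 on chr1:80340641-80340940 and Kmt2a on chr9:44881240-44881539, all on the minus strand and written 5′ to 3′.
Adnp: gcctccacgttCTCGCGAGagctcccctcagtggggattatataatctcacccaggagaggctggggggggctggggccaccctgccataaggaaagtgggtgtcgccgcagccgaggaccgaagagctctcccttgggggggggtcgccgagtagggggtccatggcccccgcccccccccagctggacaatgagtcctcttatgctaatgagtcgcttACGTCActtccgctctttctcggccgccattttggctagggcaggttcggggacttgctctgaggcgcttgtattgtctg
Cul3: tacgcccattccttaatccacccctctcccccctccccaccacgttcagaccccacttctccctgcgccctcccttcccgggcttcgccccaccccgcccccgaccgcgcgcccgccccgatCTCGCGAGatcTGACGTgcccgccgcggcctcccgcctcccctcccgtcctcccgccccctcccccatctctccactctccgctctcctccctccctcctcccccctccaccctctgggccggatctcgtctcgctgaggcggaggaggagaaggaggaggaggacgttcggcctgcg
Kmt2a: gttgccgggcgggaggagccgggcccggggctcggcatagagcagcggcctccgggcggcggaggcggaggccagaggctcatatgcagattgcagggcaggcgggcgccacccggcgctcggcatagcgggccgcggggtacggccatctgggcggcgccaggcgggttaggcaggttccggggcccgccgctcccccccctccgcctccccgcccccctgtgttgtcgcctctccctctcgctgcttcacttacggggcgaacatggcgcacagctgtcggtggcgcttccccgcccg
The response element core stands at -30 from the start in Adnp, as its reverse complement, and at -117 in Cul3, and the palindrome at -239 and -128. Kmt2a holds neither. The core occurs in 7.645% of 27025 promoters of this length and in 5 member promoters (Cul3, Kdm5b, Adnp, Pogz and Ankrd11), and the palindrome in 0.958% and in Cul3 and Adnp. The 2 marked motifs do not overlap in these windows. The GC box GGGCGG, searched on both strands like the others, occurs in 35.9% of all promoters and in 22 of the 26, and CCAAT in 37.9% and in 5 of the 26. The ETS motif CCGGAAG occurs in 9.121% and in Mbd5 and Chd8, and the YY1 motif GCCGCCAT in 2.376% and in Adnp and Ctcf. The median number of CpG was 30 in the members and 7 in all promoters. The motifs were chosen with the sequences in view, and a match is a description of letters, not a binding site.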

How the data were processed

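The values are a signal deposited by the authors: read counts per gene that DESeq2 scaled to a common depth. The tools and build in the submitters' processing notes are Salmon (0.11.2), DESeq2 (1.19.11), R (3.6.0) and GRCm38, and the labels' protocols name a TruSeq Stranded mRNA kit. The options of the quantification, including strand, are not given in the sources used here. Scaling of this kind hides a general shift of RNA content. Each library's values were multiples of 1 step (0.788 to 1.30), with 100% whole within 0.01, which gave the recovered reads. In 11 columns the step lies too near 1 to tell reads from rounded values. Gene models came from the GENCODE annotation of GRCm38.

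A gene was tested if it reached 10 normalized reads in 4 or more libraries. The log2(value + 1) of the deposited values was fitted with limma 3.58.1 with trend (R 4.3.3) over all 58 libraries, as 12 group means with the sexes weighed equally, two-sided. A value with ± is a log2 difference and its SE, except where SD is written, and a fold on this scale is too small for genes with few reads. The alternatives were edgeR 4.0.16 and DESeq2 1.42.0 on recovered reads, a pseudocount of 5, no filter, added quantile normalization, only the groups compared, each sex alone, a replicate block, additive sex with and without a term for Gm10221 reads, libraries without those reads, removal of length and GC trends, sums with overlapping genes and leaving out each library. On simulated counts for lithium in WT (17925 genes), 45 of 50 genes changed 1.3-fold and 4 of 50 changed 1.1-fold were recovered, with 12 false calls. These counts were drawn independently for each gene, and the changed genes were taken from those with more reads. Shifts shared by many genes of a library were not simulated. All 33 members are named, with values by arm for those that passed, and partners by the 4 smallest p per list and direction. Counts of signs and counts at an unadjusted p are given without the share of all genes. Members, partner lists and tests were chosen with earlier results of these data known. The values of 1 corepressor gene are not reported here.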

Additional observations from a re-analysis of the deposited data

Results flagged for a closer look

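Among the 8 members that passed in a drug comparison, 5 of 96 groups held a library far from the others of its group, where chance flags about 1 in 20. In HT lithium female 4 Kmt2a stood at 2882.3 normalized reads, against 4319.7 to 4586 in the other 4 females of that group. In WT lithium male 5 Kmt2a stood at 4866.2, against 4367.3 to 4508.5. WT fluoxetine male 5 stood high for Kdm6b, at 1234.6 against 714.72 to 840.18, and for Pogz, at 1945.8 against 1701.2 to 1751.8. That library also had an olfactory bulb marker sum of 7635 and a cortical excitatory sum of 47786, where the WT fluoxetine medians were 1019 and 60860. The part of tissue content in these values was not tested. In HT lithium female 1 Wac stood at 3805.1, against 3309.6 to 3401.1.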

How the results depend on the processing

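The main counts of members called were 0 and 2 for fluoxetine in WT and HT and 2 and 6 for lithium. With length and GC trends removed they were 1 (Arid1b) and 4 (Arid1b, Kdm6b, Kmt2a and Pogz) for fluoxetine, without a share of all genes beside them. With a term for Gm10221 reads, present in all lithium and no vehicle libraries, they were 0 and 0 for lithium in WT and HT, where this fit is less precise. For fluoxetine the same fit gave 0 in WT and 3 in HT, Kmt2a, Kdm6b and Pogz, all lower, without a share of all genes beside them. In libraries without those reads the count was 0 for fluoxetine in HT. Summing each member with same-strand overlapping genes left 1 for lithium in WT, Tbl1xr1. In females alone fluoxetine in HT gave 1, lithium in WT 0 and lithium in HT 3, and in males alone 0, 0 and 1, with fewer libraries. Leaving out 1 library gave 1 to 3 for fluoxetine in HT, 1 to 2 for lithium in WT and 4 to 9 for lithium in HT, the 9 without HT lithium female 1 and the 4 without HT lithium female 4 or male 2. No named difference that passed changed its sign in any alternative run. The replicate block, which uses label numbers that do not pair the mice (mean correlation of same-number deviations -0.0012, 9 of 58 libraries closest to their own number), gave 0, 2, 2 and 6. The term for Gm10221 reads, the libraries without them, the length and GC correction and the summed genes were chosen with the data or earlier results of them known. The self-test's low recovery of 1.1-fold changes limits what can be said of members that did not pass.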
